A study of Mus musculus with 22 samples.

Results

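The enzymes described here modify foreign compounds and lipids in sorted lung epithelial cells (ECs) of WT, AhR-/- and CYP1B1-/- mice. They are the protein-coding genes whose symbol places them among the cytochrome P450 families CYP2, CYP3 and CYP4, the glutathione transferases (GST and the membrane-bound MGST), the UDP-glucuronosyltransferases (UGT), the flavin-containing monooxygenases (FMO), the epoxide hydrolases (EPHX) and the sulfotransferases (SULT). A gene counted as a member when at least 10 reads fell on it in at least 3 of the 22 libraries. Of 154 genes with such a symbol, 93 met this rule and 61 did not, among 21793 protein-coding genes in the tables. The members were 24 CYP2, 6 CYP3, 15 CYP4, 18 GST, 3 MGST, 7 UGT, 6 FMO, 3 EPHX and 11 SULT genes. Just inside the rule, Cyp4f14 had 10 reads in 3 libraries, and Cyp2c50, Cyp2j13, Cyp2j7, Cyp4a31, Gsta2 and Sult1b1 in 4. Just outside it, Cyp2ab1, Cyp2d11, Cyp2j12, Cyp3a41b, Cyp4a10, Cyp4a32, Ephx3, Sult1c1 and Sult6b1 had 10 reads in 2 libraries. Members were thus chosen by name and by read counts over all libraries. Of the 93, 48 met the rule within each state, 39 within the naive libraries only, 3 within the HDM libraries only and 3 in neither alone, so for those that met it in a single state the choice itself favours one direction between the states. The HDM-only members were Gstp3, Cyp4f37 and Ephx2, and the naive-only members that passed a test between the states were Cyp2b9, Cyp2b23, Cyp2c39 and Ugt2b38.

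All mice were C57BL/6 or backcrossed to it, and AhR-/- and CYP1B1-/- mice carry their defect in every cell type. ECs were sorted from digested lungs as live CD45-CD31-EpCAM+ singlets, and their RNA was copied from an oligo-dT primer, amplified and sequenced. The naive groups held 4 WT, 3 AhR-/- and 3 CYP1B1-/- libraries, and the HDM groups, from mice given intranasal extract of the house dust mite Dermatophagoides farinae, held 4 libraries of each genotype. The labels give neither age nor sex, and nothing in them says whether the libraries of a group came from separate mice, so p-values measure the spread between these libraries. Each state has a table of its own, from its own sequencing run, and a difference between states cannot be told apart from one between runs. Reads of the Y-linked gene Ddx3y were present in all naive libraries and at 0 in every WT and CYP1B1-/- HDM library, so in these genotypes the state and what those reads mark cannot be told apart either.

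P450 and FMO enzymes add or expose an oxygen on their substrates, which can detoxify a compound or turn it into a reactive one. Epoxide hydrolases open reactive epoxides with water, and GST, UGT and SULT enzymes attach glutathione, glucuronic acid or sulfate so that the product can be exported. In the lung this chemistry is best known from club cells, and ligands of the aryl hydrocarbon receptor (AhR) induce some of these enzymes through the DNA core GCGTG, while the antioxidant element TGACNNNGC is used by Nrf2.

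Of the 93 members, 79 had a promoter window in RefSeq, running from 250 bases before to 50 after an annotated start. The core GCGTG, searched on both strands, lay in the windows of 18 of the 79 (22.8%) and of 35.2% of all 27025 genes with a window. The pattern TGACNNNGC, also searched on both strands, lay in 9 of the 79 (11.4%) and in 14.0% of all genes. The 4 windows below belong to members whose levels are described in detail, and capitals mark either motif on either strand (RefSeq, GRCm38.p6). The Cyp2b10 window is chr7:25897408-25897707 (plus strand), Gsta3 chr1:21240335-21240634 (plus), Gstm1 chr3:108017769-108018068 (minus) and Cyp4f39 chr17:32452473-32452772 (plus).
Cyp2b10: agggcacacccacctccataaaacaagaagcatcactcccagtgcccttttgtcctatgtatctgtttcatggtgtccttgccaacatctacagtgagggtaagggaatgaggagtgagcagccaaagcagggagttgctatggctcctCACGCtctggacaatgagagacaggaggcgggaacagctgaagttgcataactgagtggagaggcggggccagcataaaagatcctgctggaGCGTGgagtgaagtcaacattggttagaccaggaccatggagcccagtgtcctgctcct
Gsta3: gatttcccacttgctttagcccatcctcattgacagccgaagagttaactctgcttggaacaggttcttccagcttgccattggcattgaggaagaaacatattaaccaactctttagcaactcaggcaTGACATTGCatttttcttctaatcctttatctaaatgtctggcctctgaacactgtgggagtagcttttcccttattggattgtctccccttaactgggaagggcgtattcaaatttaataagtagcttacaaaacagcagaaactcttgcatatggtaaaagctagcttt
Gstm1: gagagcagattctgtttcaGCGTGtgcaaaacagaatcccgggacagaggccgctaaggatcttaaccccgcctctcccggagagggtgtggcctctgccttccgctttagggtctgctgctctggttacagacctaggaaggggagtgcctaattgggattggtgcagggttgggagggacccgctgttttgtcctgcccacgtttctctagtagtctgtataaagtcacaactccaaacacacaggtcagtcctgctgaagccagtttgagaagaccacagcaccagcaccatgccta
Cyp4f39: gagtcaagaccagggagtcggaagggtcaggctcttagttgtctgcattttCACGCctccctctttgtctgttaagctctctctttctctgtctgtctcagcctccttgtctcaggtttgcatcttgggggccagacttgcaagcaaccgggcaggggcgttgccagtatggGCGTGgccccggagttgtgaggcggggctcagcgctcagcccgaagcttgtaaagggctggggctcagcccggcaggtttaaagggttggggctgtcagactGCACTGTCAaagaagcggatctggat
Cyp2b10 holds GCGTG on both strands, Gsta3 holds only TGACNNNGC, Gstm1 only GCGTG, and Cyp4f39 holds 2 copies of GCGTG and 1 of TGACNNNGC. A match describes these letters in this window and does not make it a site.

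Total counts ranged from 9654825 to 17878442 per library. Levels are given in CPM, counts scaled to TMM-normalized library sizes over the protein-coding genes, on which 3 counts correspond to 0.108 to 1.37 CPM. The predicted gene Gm10800 took from 0.00819% to 71.9% of the total counts of a library. Members took from 0.250% to 0.806% of the normalized counts of naive libraries and from 0.0567% to 0.561% of those of HDM libraries. Among naive libraries, CYP1B1-/- replicate 2 stood apart, with 2503 CPM over all members against 5444 to 8057 in the other 9. The targeted genes did not part the labels by loss. Ahr was at 15.5 to 20.1 CPM in naive libraries labelled AhR-/- and at 6.38 to 12.3 in WT, and Cyp1b1 at 3.62 to 5.89 CPM in those labelled CYP1B1-/- and at 0.644 to 1.91 in WT. Counts over whole genes would still include a transcript that lacks some exons, so the knockout libraries are called by their labels throughout. Ddx3y was counted in all 10 naive libraries and in AhR-/- HDM replicates 3 and 4 (19.7 to 99.8 CPM), and was at most 0.0859 CPM in the other 10 HDM libraries. The sort markers Epcam, Cdh1, Krt8 and Krt18 summed to 1116 to 1646 CPM in naive and 481 to 865 in HDM libraries, without overlap. In WT, mean Epcam was higher in HDM than in naive libraries (196.3 against 107.5 CPM). Mean Cdh1, Krt8 and Krt18 were lower (253.4, 66.5 and 62.8 CPM in HDM against 774, 194.5 and 199.1 in naive WT).

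The P450 genes Cyp2b10 and Cyp4b1 had the highest mean levels of the set, with a lead that differed between libraries. Per kb of exon and averaged over the 22 libraries, Cyp2b10, a phenobarbital-inducible P450, was at 712 CPM per kb and Cyp4b1, a lung P450 that oxidises fatty acids and activates 4-ipomeanol, at 604. Cyp2f2, the club cell P450 that activates naphthalene, followed at 71.9, Gsto1, which reduces dehydroascorbate, at 63.4, and Sult1a1, a phenol sulfotransferase, at 43.8. Cyp2b10 made up 30.1% to 46.2% of the CPM of all members in naive libraries and 5.69% to 45.2% in HDM libraries, and Cyp4b1 32.8% to 47.6% and 4.87% to 34.5%. Per kb, Cyp2b10 or Cyp4b1 was the highest member in all 10 naive libraries, and Cyp2b10 in 9 of 12 HDM libraries. In WT HDM replicate 4 and CYP1B1-/- HDM replicate 3 the highest was Gsto1, and in CYP1B1-/- HDM replicate 1 it was Cyp2f2.

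To set a floor for silent genes, the level that 95% of 1092 olfactory receptor genes stay under was taken in each library, which was 0.0503 to 1.07 CPM per kb. This floor was chosen with the data in view. By it, 26 members were above the floor in all 22 libraries, 19 in every library of at least 1 group, and 48 in no whole group. Of the 18 GSTs, 12 were above the floor everywhere, as were 2 of the 3 MGSTs. Of the 7 UGTs, Ugt1a7c passed in at least 1 group and the other 6 in none. In CYP3, Cyp3a13 was above the floor everywhere and the other 5, Cyp3a16 and Cyp3a44 among them, were not above it in any whole group. The hepatic enzymes Cyp2e1 and Cyp3a11 were also among the 48.

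**Figure D1:**
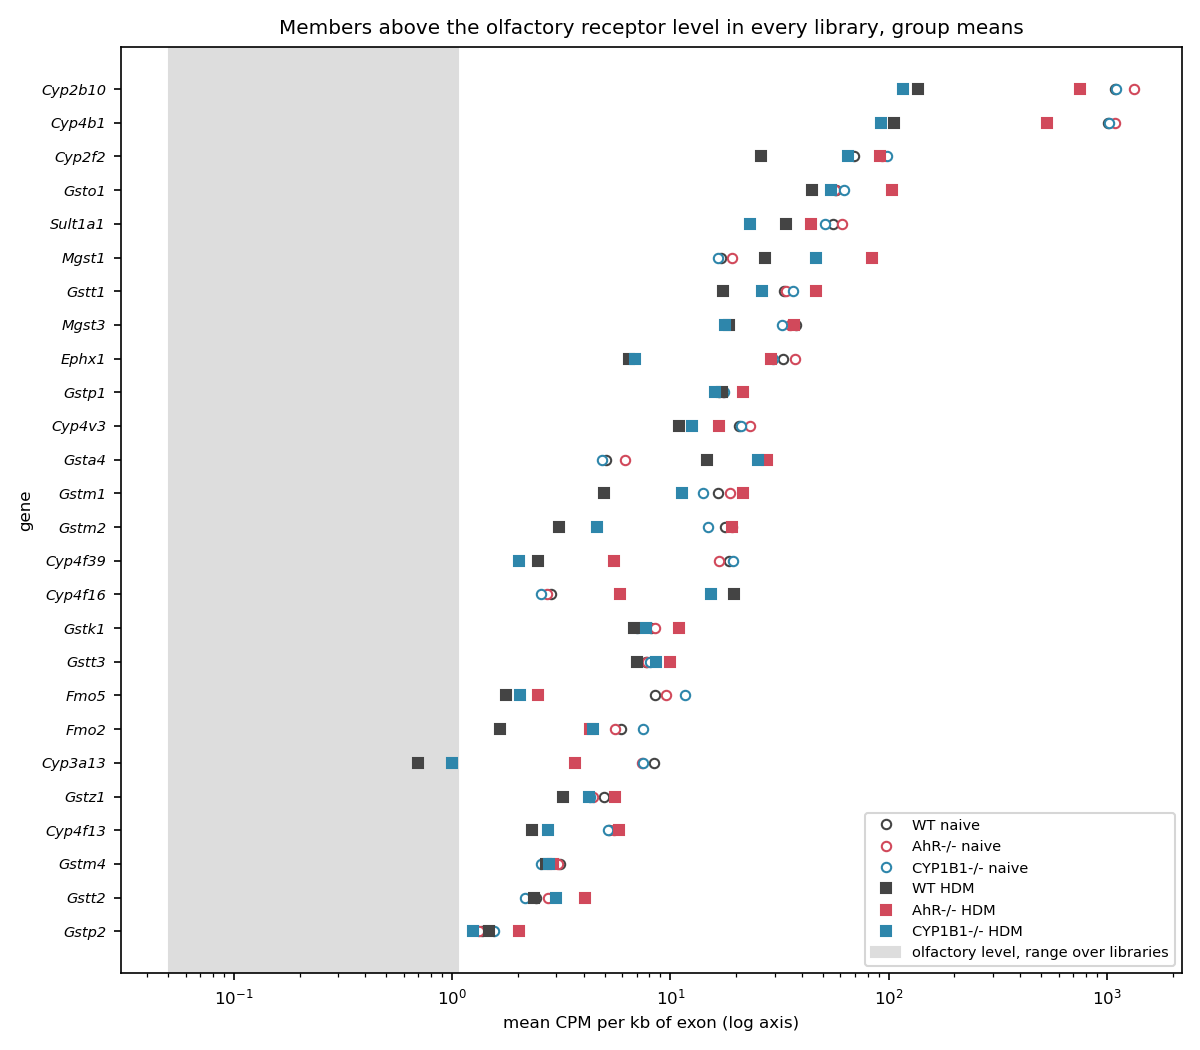
Mean CPM per kb of exon (log axis) of the 26 members above the olfactory receptor level in all 22 libraries, 1 row per gene, with open circles for naive and filled squares for HDM groups; the grey band spans the olfactory level of the 22 libraries. Within each group Cyp2b10 and Cyp4b1 stand to the right of all others, and Cyp3a13 reaches into the band in WT and CYP1B1-/- HDM.

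The next members by level in each family were as follows, in CPM per kb over all libraries. After Cyp2b10 and Cyp2f2, the CYP2 gene Cyp2s1 was at 3.67. After Cyp4b1, Cyp4v3 was at 17.1 and Cyp4f39, which hydroxylates very long chain fatty acids, at 10.1. Gstt1 was at 32.0 and Gstp1 at 17.8, Mgst1 at 36.7 and Mgst3 at 29.4. Ephx1, the microsomal epoxide hydrolase, was at 22.8, with Ephx4 at 0.333 and Ephx2 at 0.302, neither above the floor in a whole group. Fmo5 was at 5.57 and Fmo2 at 4.74. Sult1d1 was at 2.59 and Sult2b1, a cholesterol sulfotransferase, at 0.702, while Ugt1a7c was at 1.78 with Ugt2b1 at 0.362 and Ugt2b5 at 0.360. Below, a gene is called under the floor when it was above it in no whole group.

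In WT, members that differed between the states were mostly lower in HDM than in naive ECs, Cyp2b10, Cyp4b1 and Fmo5 among them. In this genotype, 89 of the 93 members were tested with edgeR's quasi-likelihood test (Benjamini-Hochberg adjusted p of at most 0.05 over all genes), and 24 were lower and 6 higher, where 19.4% and 19% of all 16639 genes tested were lower and higher. The median log2 fold change of the members was -1.004, against -0.11 over all genes. It was -0.93 over the 45 members above the floor in at least 1 group and -1.07 over the 44 under it. Over the 48 members that met the count rule within each state it was -0.85, with 20 lower and 4 higher, and over the 37 tested that met it in naive libraries only it was -1.36, with 4 lower. The 3 that met it in HDM libraries only had a median of 2.67, and 2 of the 6 higher members were among them. The 24 lower members were 8 CYP2, 1 CYP3, 5 CYP4, 3 FMO, 1 EPHX, 4 GST, 1 MGST and 1 UGT gene, and the 6 higher ones 1 CYP2, 2 CYP4, 1 GST, 1 MGST and 1 UGT gene. Of the 10 SULTs tested none passed, with a median of -1.20. Cyp2j13, Cyp4a31, Gsta2 and Sult1b1 were filtered out for low counts. With each library left out in turn, 27 to 36 members passed.

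The leading P450s both fell. Cyp2b10 (ENSMUSG00000030483, GRCm38 chromosome 7, 25897620 to 25926624) was at 2252, 2189, 2488 and 2293 CPM in naive WT and at 392, 514, 190 and 54.3 in WT HDM (log2 fold change -3.005 ± 0.77 SE, adjusted p = 0.00324). Cyp4b1 (ENSMUSG00000028713, chromosome 4, 115624725 to 115647723) went from 2275, 2189, 2073 and 2611 CPM to 379, 370, 161 and 40.1 (log2 fold change -3.27 ± 0.77 SE, adjusted p = 0.00174). For both genes every HDM library was below every naive one, and WT HDM replicate 4 was the lowest. Cyp2b13, which shares 27.3% of its 50-base stretches with other genes of the cluster, was at 3.64, 3.83, 3.52 and 2.85 CPM in naive WT and 0.448, 1.27, 0 and 0.449 in HDM (log2 fold change -2.83 ± 0.64 SE, adjusted p = 0.00119). Cyp2b23 was at 2.57, 2.28, 2.37 and 1.70 CPM in naive and 0.0897, 0.254, 0.304 and 0.833 CPM in HDM libraries (log2 fold change -2.51 ± 0.62 SE, adjusted p = 0.00236). Both fell at far lower levels than Cyp2b10, and Cyp2b9 fell as well, by 1.90 in log2 units (adjusted p = 0.0247).

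Cyp3a13, the one CYP3 above the floor, was at 23.5, 20.9, 28.9 and 25.9 CPM in naive WT and at 2.73, 3.30, 0.913 and 1.28 in HDM (log2 fold change -3.62 ± 0.58 SE, adjusted p = 4.46e-05). Cyp4f39 fell from 43.3, 47.5, 51.2 and 68.98 to 11.03, 8.63, 6.39 and 2.31 CPM (log2 fold change -2.90 ± 0.49 SE, adjusted p = 8.05e-05). Neither gene's groups overlapped. Cyp2f2 was at 167, 137, 156 and 101 CPM in naive and 62.3, 88.8, 25.4 and 34.4 CPM in HDM libraries (log2 fold change -1.41 ± 0.54 SE, adjusted p = 0.0421). It passed the threshold narrowly, and 13.5% of its exon length lies opposite an antisense gene. Cyp4v3, Cyp4f13, Cyp4f17, Cyp2c39, Cyp2a5 and Cyp2d22 also fell, by 0.92 to 2.69 on the log2 scale, and of these Cyp2a5 was under the floor.

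Among the flavin enzymes, Fmo5, a Baeyer-Villiger type monooxygenase, had the lowest p of all members. It was at 43.4, 40.8, 45.2 and 63.00 CPM in naive WT and at 7.98, 9.13, 12.8 and 9.94 in HDM (log2 fold change -2.28 ± 0.31 SE, adjusted p = 1.11e-05), with no overlap between the groups. Fmo2 was at 49.4, 38.3, 22.6 and 23.3 CPM in naive and 6.55, 17.8, 7.91 and 4.74 CPM in HDM libraries (log2 fold change -1.90 ± 0.61 SE, adjusted p = 0.0177). Fmo1 fell as well, by 1.69, though its groups overlapped and it was under the floor. Ephx1 (ENSMUSG00000038776, chromosome 1, 180976210 to 181020904) fell from 66.5, 60.2, 55.5 and 74.7 to 16.1, 18.01, 10.8 and 5.71 CPM (log2 fold change -2.35 ± 0.47 SE, adjusted p = 0.000381), again with no overlap.

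Of the 17 GSTs tested, 4 fell and 1 rose. The alpha enzyme Gsta3 (ENSMUSG00000025934, chromosome 1, 21240589 to 21265661) was at 53.8, 56.5, 59.9 and 60.2 CPM in naive WT and at 6.14, 8.88, 4.41 and 1.60 in HDM (log2 fold change -3.50 ± 0.60 SE, adjusted p = 9.8e-05). The mu enzyme Gstm2 was at 27.7, 33.3, 28.5 and 30.3 CPM in naive and 6.95, 6.85, 4.26 and 2.63 CPM in HDM libraries (log2 fold change -2.55 ± 0.49 SE, adjusted p = 0.000267). Gstm1 and Gsto2 fell too, by 1.76 and 1.67 on the log2 scale. The pi enzyme Gstp3 rose from 0.298, 0.494, 0.474 and 0.598 to 5.25, 3.04, 2.59 and 1.15 CPM (log2 fold change 2.67 ± 0.64 SE, adjusted p = 0.00204), a rise that the count rule favoured. The other 12 GSTs tested did not pass, among them the highly counted Gsto1 (log2 fold change -0.36, adjusted p = 0.334), Gstt1 (-0.93, adjusted p = 0.0754) and Gstp1. Gstp1 was at 21.9, 24.1, 24.3 and 32.9 CPM in naive WT and 41.1, 20.8, 28.8 and 16.1 in HDM, so that its groups overlapped widely.

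Besides Gstp3, the members that rose were a CYP4F pair, a UGT, Cyp2r1 and Mgst2. Ugt1a7c (ENSMUSG00000090124, chromosome 1, 88095062 to 88220002) was at 3.58, 3.77, 1.62 and 1.61 CPM in naive WT and at 16.2, 8.37, 25.6 and 19.5 in HDM (log2 fold change 2.72 ± 0.45 SE, adjusted p = 5.86e-05). Of its 50-base stretches 53.7% also lie in other Ugt1a genes, which share their last exons, so the count may stand for the locus. Cyp4f16 was at 8.05, 8.39, 8.67 and 9.53 CPM in naive and 69.9, 25.1, 102 and 42.4 CPM in HDM libraries (log2 fold change 2.79 ± 0.55 SE, adjusted p = 0.000375), and Cyp4f37 at 0.179, 0.247, 0.745 and 0.322 CPM in naive and 3.05, 1.52, 10.8 and 4.36 CPM in HDM libraries (log2 fold change 3.72 ± 0.68 SE, adjusted p = 0.000152), the latter an HDM-only member. These fatty acid hydroxylase genes share 17.4% and 19.7% of their 50-base stretches with relatives, each other included, so their counts may not be independent. Of the pair, Cyp4f37 was under the floor. Cyp2r1, a vitamin D 25-hydroxylase, was at 1.25, 1.11, 0.406 and 0.506 CPM in naive and 3.68, 2.54, 4.41 and 4.42 CPM in HDM libraries (log2 fold change 2.21 ± 0.48 SE, adjusted p = 0.000871). Mgst2, which can make leukotriene C4, was at 0.298, 0.309, 0.813 and 0.230 CPM in naive and 2.96, 3.30, 0.761 and 0.769 CPM in HDM libraries (log2 fold change 2.21 ± 0.70 SE, adjusted p = 0.0150). Its groups overlapped, and its adjusted p was 0.0738 without WT HDM replicate 1. At the other end, Ugt2b38 was under the floor, with 73 reads over the naive WT libraries and 2 over WT HDM, a naive to HDM ratio of 25.4 (95% exact interval 6.80 to 214, counting error only). Of the 8 libraries with 10 or more of its reads 7 were naive, so the count rule itself favoured a fall. Both HDM reads were in replicate 4, without which the fitted log2 fold change went from -4.48 to -6.99.

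**Figure D2:**
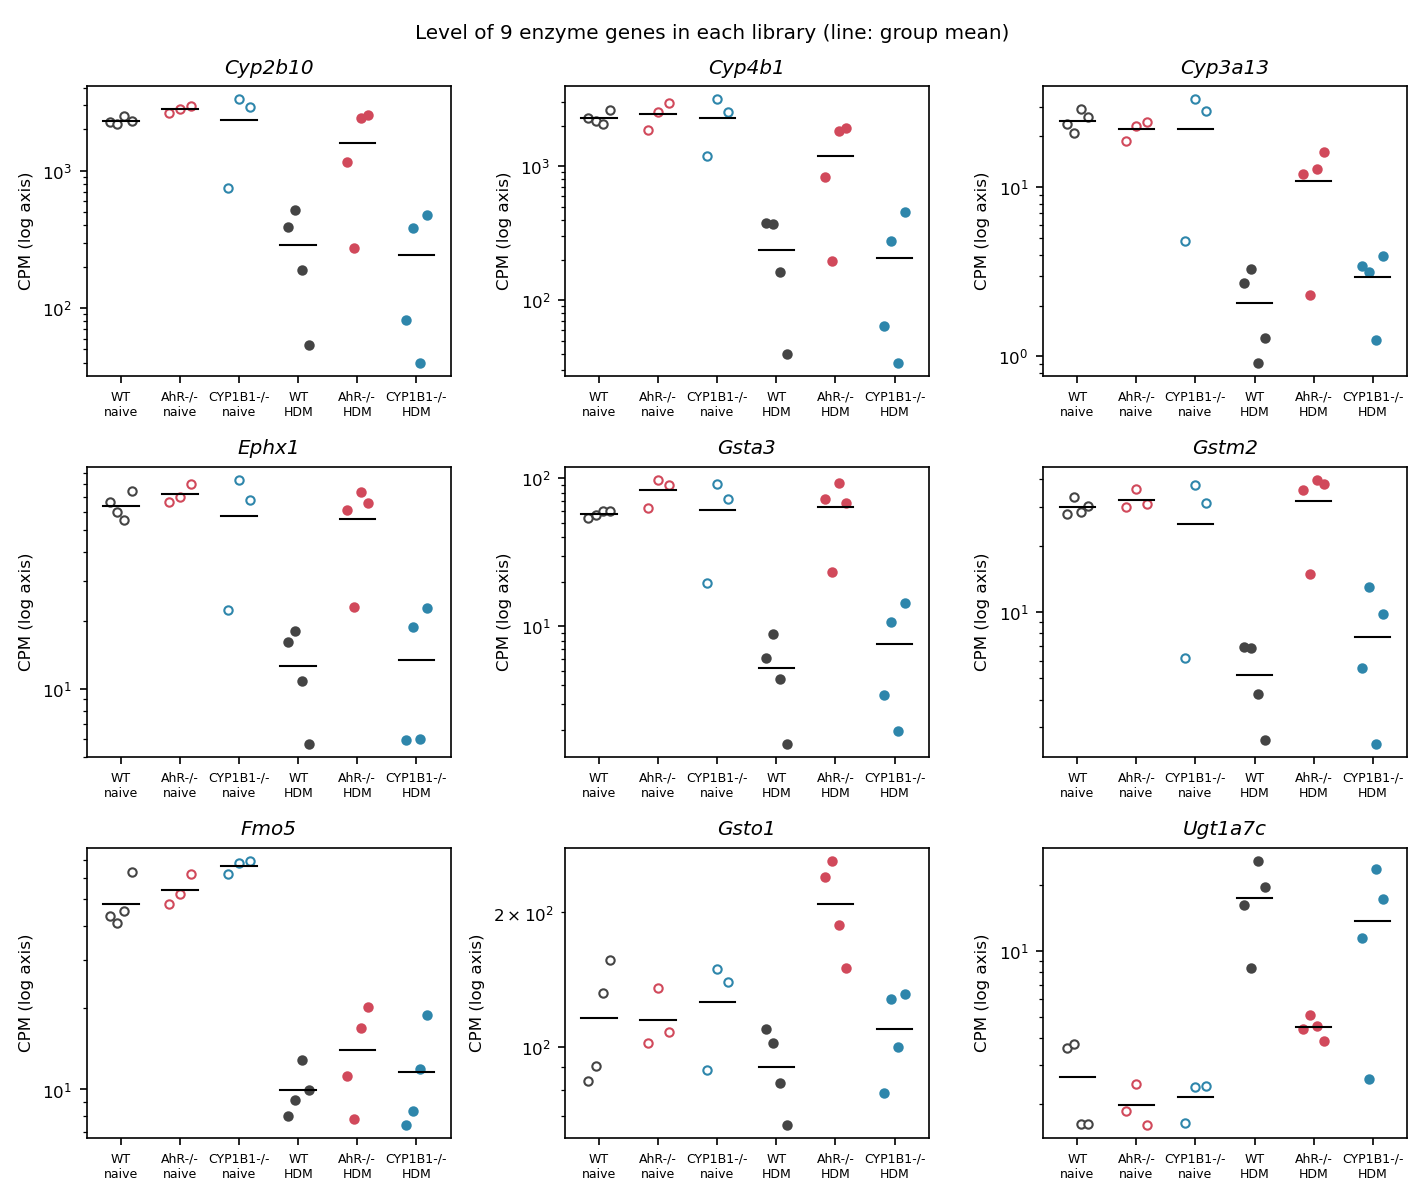
CPM (log axes) of 9 members in each of the 22 libraries, 1 point per library, open for naive and filled for HDM, with a line at the group mean. Cyp2b10 to Fmo5 lie lower in WT HDM than in naive WT, Ugt1a7c lies higher, and the AhR-/- HDM points of Gsta3 (23.3 to 93.3 CPM) lie above all WT HDM points.

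Marker genes of other cell types and of epithelial subsets moved with these changes. In bulk samples, fewer cells of a type and less RNA per cell cannot be told apart. All 7 alveolar type 1 markers were counted, and their summed CPM was 20600 to 25430 in naive WT and 693 to 4768 in WT HDM. The 8 ciliated cell markers summed to 3291 to 5083 in naive WT and to 174 to 632 in WT HDM, a sum led by Sec14l3 (means 3592 and 332 CPM), while Foxj1 was at means of 1.66 and 1.36 CPM. The 7 club cell markers summed to 1137 to 2657 and to 195 to 2115, led by Scgb1a1 (means 2032 and 717 CPM). Of these 7, Scgb3a1, Reg3g, Hp and Muc5b had higher means in WT HDM than in naive WT. The 8 alveolar type 2 markers summed to 2335 to 5335 and to 4538 to 24970, led by Sftpc (means 2272 and 6400 CPM) and Sftpa1 (834.5 and 4272), while Abca3 was at means of 91.1 and 66.1 CPM. All 15 hematopoietic markers were counted although CD45+ cells were sorted out, at 6.86 to 203 CPM in naive WT and 1318 to 4203 in WT HDM. The 5 goblet markers summed to 2.53 to 4.40 and to 28.3 to 413 CPM, led in HDM by Clca1 (mean 133 CPM), while Foxa3 was at means of 0.752 and 0.386 CPM. No marker of these lists was at 0 in all libraries. With the alveolar type 1 score as a covariate, 3 members passed in place of 30 (1 higher, 2 lower) and Cyp4b1 turned to 0.19, and with the hematopoietic score none, with 7 of all genes called. The scores differ between the states themselves, so the state and these markers cannot be told apart here.

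In the libraries labelled CYP1B1-/-, 25 members differed between the states, 17 lower and 8 higher, where 17.9% and 15.5% of all genes were lower and higher, so that the members' share of lower calls, 17 of 89, was near that over all genes. The median over the 89 members tested was -0.29, against -0.02 over all genes, and was -0.50 over the 45 above the floor in at least 1 group and -0.23 over the 44 under it. Cyp2b10 was at 754, 3316 and 2898 CPM in naive and 81.5, 382, 39.8 and 478 in HDM libraries (log2 fold change -3.24 ± 0.80 SE, adjusted p = 0.00274). Cyp4b1 was at 1192, 3161 and 2544 CPM in naive and 64.4, 276, 34.02 and 454 CPM in HDM libraries (log2 fold change -3.47 ± 0.80 SE, adjusted p = 0.00163). The low naive library in both is replicate 2, and still the groups did not overlap. With the alveolar type 1 score as a covariate the direction turned, to 0.92 for Cyp2b10 and 0.80 for Cyp4b1, and likewise to 0.030 for Gsta3, 0.23 for Ephx1 and 0.56 for Gstm2, none of them past the threshold.

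Fmo5 again had the lowest p, at 61.8, 67.99 and 69.1 CPM in naive and 7.39, 8.36, 11.9 and 18.9 CPM in HDM libraries (log2 fold change -2.49 ± 0.32 SE, adjusted p = 1.37e-05). Unlike most members it was not low in naive replicate 2. Cyp4f39 fell by 3.28, Cyp3a13 by 2.93, Gsta3 by 3.02, Cyp2b13 by 2.71 and Ephx1 by 2.12 on the log2 scale, with adjusted p from 6.62e-05 to 0.00268, and of these the groups of Ephx1 overlapped through naive replicate 2. Cyp4f17 fell by 1.28 (adjusted p = 0.00674), and Gstm2 by 1.74 (adjusted p = 0.00903), which reached 0.0781 without naive replicate 3 and also exceeded 0.05 without HDM replicate 1. Ugt1a7c rose by 2.70, Cyp2r1 by 2.41, Cyp4f16 by 2.60 and Cyp4f37 by 3.01, the last pair with overlapping groups. Gstp3 was at 0.567, 0.355 and 0.118 CPM in naive and 6.67, 7.49, 2.62 and 3.87 CPM in HDM libraries (log2 fold change 3.85 ± 0.76 SE, adjusted p = 0.000397), and Mgst2 rose by 2.37 (adjusted p = 0.0194, and 0.0880 without naive replicate 4).

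The 4 members that passed here and not in WT were Gsta4, Cyp4f18, Cyp2u1 and Sult1a1, and whether they differ from WT is the interaction tested below. Gsta4, which conjugates the lipid peroxidation product 4-hydroxynonenal, was at 0.780, 9.99 and 7.66 CPM in naive and 35.7, 59.6, 13.5 and 17.98 CPM in HDM libraries (log2 fold change 2.34 ± 0.73 SE, adjusted p = 0.0163). The call was lost with the replicate number as a block, and the HDM levels had the same order as the alveolar type 2 sums, which were 20830, 38960, 6161 and 13990 CPM, with no test of that link. Cyp4f18, which hydroxylates leukotriene B4 in neutrophils, was at 1.13, 0.304 and 0.471 CPM in naive and 3.07, 4.32, 15.1 and 13.8 CPM in HDM libraries (log2 fold change 3.90 ± 1.07 SE, adjusted p = 0.00663). Its HDM level was highest in replicates 3 and 4, which also had the most hematopoietic marker counts, 4074 and 3219 CPM against 1248 and 188 in replicates 1 and 2. With either score as a covariate no member passed. Cyp2u1, under the floor, fell by 1.62 (adjusted p = 0.0208) and Sult1a1 by 1.14 (adjusted p = 0.0410). Sult1a1 was at 32.8, 92.99 and 105 CPM in naive and 23.3, 31.4, 36.99 and 48.1 CPM in HDM libraries, with overlapping groups. The alveolar type 1 sum was 15200 to 27770 CPM in naive and 513 to 4520 in HDM libraries.

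In the libraries labelled AhR-/-, 13 members differed between the states, 8 higher and 5 lower, where 10.6% and 10.1% of all genes were higher and lower, so that the members' share of higher calls, 8 of 89, was near that over all genes. The median of the 89 members was -0.37, against -0.05 over all genes. The 45 tested members above the floor in at least 1 group had a median of 0.06, with 24 positive and 21 negative, and the 44 under it one of -0.99. Over the 48 that met the count rule within each state the median was 0.22, with 7 higher and 2 lower, and over the 37 tested that met it in naive libraries only it was -1.39, with 3 lower. Gstp3 and Mgst2 passed as higher, and Cyp2b23, Cyp4f39 and Fmo5 as lower, in all 3 genotypes, but in AhR-/- the calls of Cyp2b23 and Cyp4f39 were each lost in 6 of 7 omissions of a single library, and that of Cyp2b23 in 8 of 10 other settings. The count rule favoured the rise of Gstp3 and the fall of Cyp2b23, as these met it in a single state. Leaving out naive replicate 1, 3 or 4 left 6, 5 or 4 calls, and leaving out HDM replicate 1 or 2 left 7. Of the members named, Fmo5, Gstp3, Cyp2c39 and Ugt2b38 passed with any library left out.

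Fmo5 was at 48.03, 52.1 and 61.9 CPM in naive and at 11.2, 7.82, 16.8 and 20.1 in HDM libraries (log2 fold change -1.97 ± 0.32 SE, adjusted p = 0.000511). Cyp2c39 was at 2.75, 3.73 and 2.21 CPM in naive and 0.179, 0.515, 0.455 and 0.177 CPM in HDM libraries (log2 fold change -3.22 ± 0.74 SE, adjusted p = 0.00465). Both fell without overlap, though Cyp2c39 met the count rule in naive libraries only, which favours a fall, and was near the level of 3 counts after HDM. Cyp4f39 fell by 1.60 (adjusted p = 0.0253) and Cyp2b23 by 1.80 (adjusted p = 0.0484). Ugt2b38 had 67 reads in naive and 4 in HDM libraries, a ratio of 15.8 (95% exact interval 5.88 to 59.6). Neither Cyp2b10 nor Cyp4b1 passed. Cyp2b10 was at 2640, 2815 and 2945 CPM in naive and 1156, 273, 2402 and 2539 in HDM libraries (log2 fold change -0.81 ± 0.76 SE, adjusted p = 0.485), and Cyp4b1 at 1872, 2516 and 2958 CPM in naive and 833, 196, 1837 and 1936 CPM in HDM libraries (log2 fold change -1.03 ± 0.76 SE, adjusted p = 0.359). HDM replicates 3 and 4 had the highest HDM levels of both genes, and replicate 2 was within the range of WT HDM. Replicates 3 and 4 are the HDM libraries with Ddx3y reads, at 67.3 and 69.6 CPM against 0.0358 and 0.0859 in replicates 1 and 2. The alveolar type 1 sums of replicates 1 to 4, at 10170, 3632, 15330 and 19940 CPM, had the same order as Cyp2b10, with replicate 2 lowest. The part of either in this division was not tested.

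Of the 8 members that rose, 6 were GSTs or MGSTs. Mgst1, a membrane-bound transferase and peroxidase, was at 47.01, 43.3 and 25.8 CPM in naive and 320, 225, 70.1 and 62.7 in HDM libraries (log2 fold change 2.13 ± 0.72 SE, adjusted p = 0.0394). Mgst2 was at 0.659, 0.747 and 0.308 CPM in naive and 9.03, 6.78, 0.910 and 1.77 CPM in HDM libraries (log2 fold change 3.09 ± 0.76 SE, adjusted p = 0.00712). Both were highest in replicates 1 and 2, and the alveolar type 2 markers divided the same libraries, at 72040 and 36250 CPM against 7751 and 7592. So did the Ddx3y reads, which replicates 1 and 2 lacked but for traces, and the part of either in the result was not tested. Gsta4 (8.92, 9.54 and 5.11 CPM in naive and 51.4, 65.8, 9.10 and 13.6 CPM in HDM libraries, log2 fold change 2.18 ± 0.72 SE, adjusted p = 0.0362) and Gstp3 (1.08, 0.230 and 0.246 CPM in naive and 7.70, 7.13, 1.82 and 1.06 CPM in HDM libraries, log2 fold change 3.16 ± 0.72 SE, adjusted p = 0.00443) were highest in replicates 1 and 2 too, and their groups overlapped. Gsto1 was at 102, 135 and 108 CPM in naive and 240, 260, 187 and 150 CPM in HDM libraries (log2 fold change 0.86 ± 0.31 SE, adjusted p = 0.0487). Gstm5 rose by 1.45 (adjusted p = 0.0432), Cyp2j6, a fatty acid epoxygenase, by 1.36 (adjusted p = 0.0234) and Cyp4f18 by 3.55 (adjusted p = 0.0218). Cyp4f18 had 198, 190, 3 and 5 reads in the HDM libraries, where the hematopoietic sum was 805, 879, 157 and 121 CPM. Its groups overlapped, and with the hematopoietic score its log2 fold change was -0.62. With the hematopoietic score as a covariate 1 member passed, with the alveolar type 1 score 12, and with the HDM libraries that had Y-linked reads alone 1 passed.

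**Figure D3:**
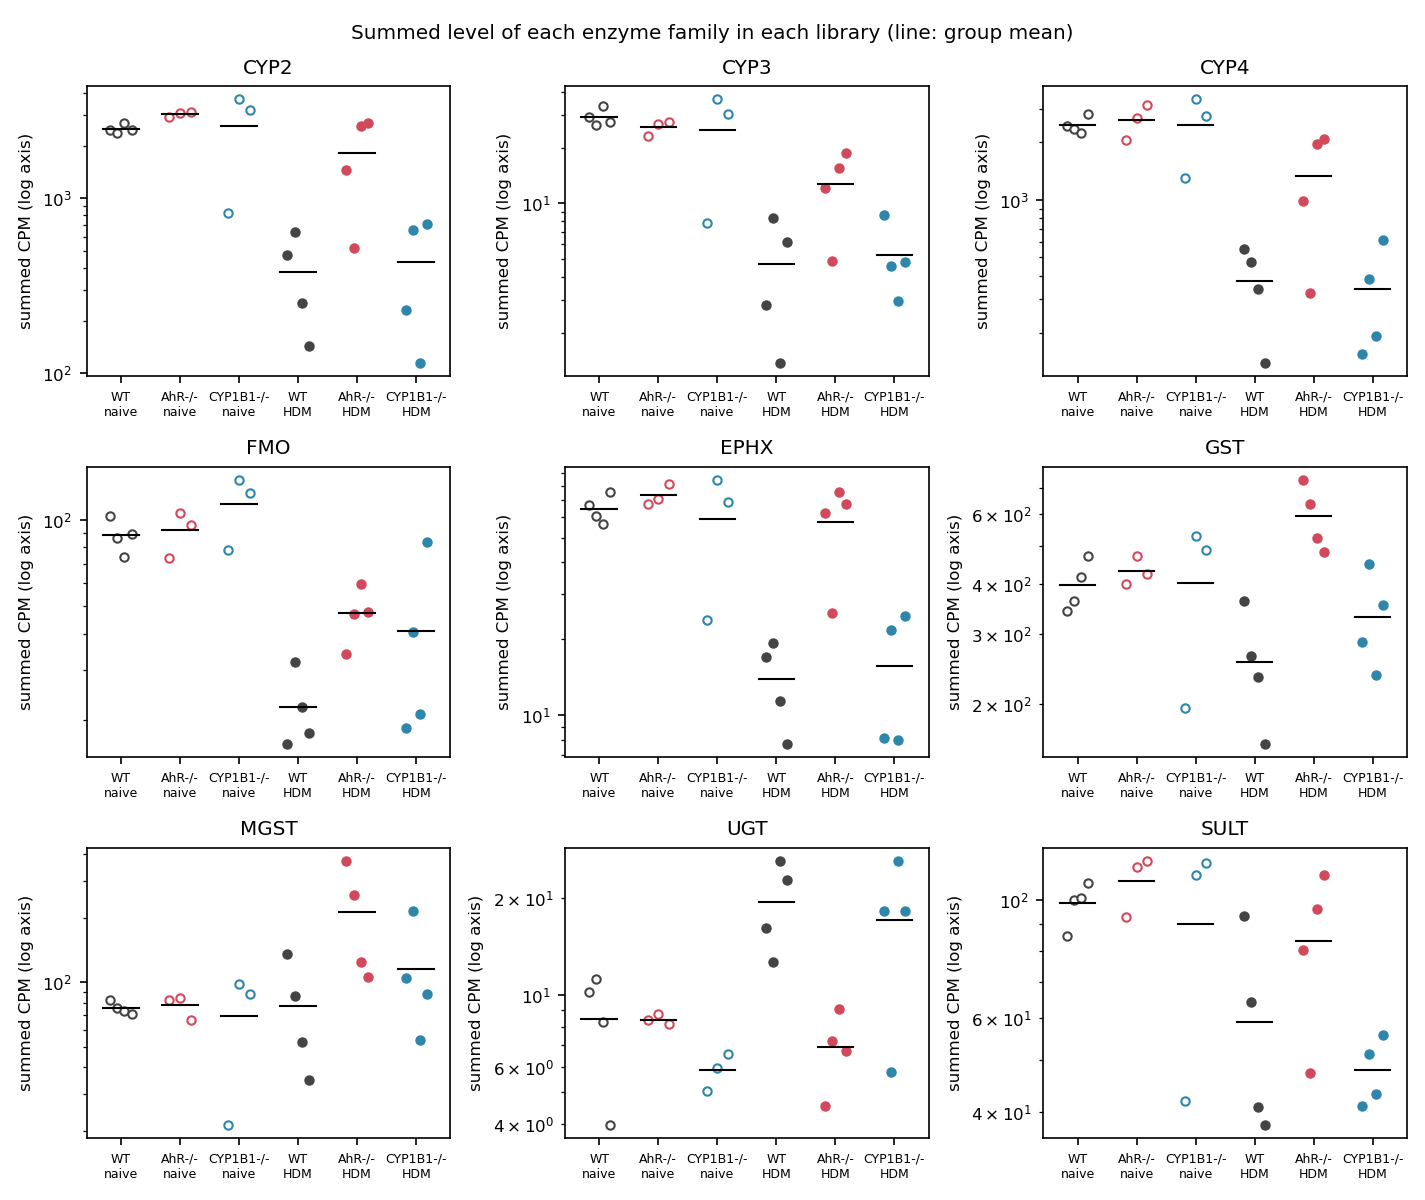
Summed CPM (log axes) of the members of each family in each library, 1 point per library, open for naive and filled for HDM, with a line at the group mean. CYP2 sums are 2371 to 2689 CPM in naive WT and 142 to 638 in WT HDM, whereas the GST sums of AhR-/- HDM libraries (483 to 731) all exceed those of WT HDM (159 to 363).

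Sums over families describe each library by its most counted genes. The CYP4 members summed to 2429, 2350, 2246 and 2820 CPM in naive WT and 554, 471, 342 and 139 in WT HDM. The GST members summed to 342, 363, 417 and 470 CPM in naive WT and 363, 263, 234 and 159 in WT HDM. Thus the GST sums overlapped between the states of WT while the CYP4 sums did not. UGT sums went the other way, from 10.3, 11.2, 8.26 and 3.96 to 16.2, 12.7, 26.02 and 22.8 CPM, which follows Ugt1a7c.

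Whether the change between states differed by genotype was tested as an interaction of genotype and state. None of the 89 members passed for AhR-/- or for CYP1B1-/-, nor did any of the 16639 genes (0%). For AhR-/-, 16 members (and 3050 genes, 18.3%) were under 0.05 before adjustment, and the lowest adjusted p was 0.149. Gsta3 had an interaction of 3.12 (SE 0.83, adjusted p = 0.149) and Gstm2 of 2.53 (SE 0.69, adjusted p = 0.149), both on the log2 scale. Of the same 89 members, the likelihood ratio test called 2, DESeq2 7 and limma voom, run with sample weights throughout, 20. Leaving out AhR-/- HDM replicate 2 gave 5 calls by the quasi-likelihood test, Gsta3 and Gstm2 among them (adjusted p = 0.0232 and 0.0256). The share of all genes called is not given beside these counts, so they are not read as particular to the members. For CYP1B1-/-, 4 members (and 382 genes, 2.3%) were under 0.05 before adjustment, and all 4 were under the floor. They were led by Ugt2b38 (4.13 with an SE of 1.25) and Cyp2j9 (1.81 with an SE of 0.78), both at an adjusted p of 0.9999. The differences between the state calls of the genotypes above are therefore not shown by this test.

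Among HDM libraries, those labelled AhR-/- had higher levels of many of these enzymes than WT. The filter left 46 of the 93 members, of which 11 were higher and 2 lower by edgeR's quasi-likelihood test, where 9.22% and 12.9% of all 14161 genes tested were higher and lower. The median log2 fold change of the members tested was 1.10, against -0.00 over all genes. All 16 GSTs tested had a positive value, and 5 of them passed. The members that rose were 5 GST, 2 CYP2, 1 CYP3, 1 CYP4, 1 EPHX and 1 MGST gene, and those that fell 1 CYP4 and 1 UGT gene. No SULT and no FMO passed.

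The count of calls depended on single libraries. No member and no gene passed without WT HDM replicate 3 or 4, or without AhR-/- HDM replicate 1, 3 or 4. Without WT replicate 1, 9 members passed, without WT replicate 2, 20, and without AhR-/- replicate 2, 13. No member passed either when both AhR-/- libraries with Y-linked reads were left out, with the hematopoietic or the alveolar type 1 score as a covariate, or with the replicate number as a block. The fold changes kept their direction each time a single library was left out, and those followed under the other settings did so too. Some stayed near their size and others shrank under some settings. Log2 fold changes ranged over these settings from 1.05 to 1.41 for Gsto1 (1.20 in the main fit) and from 0.86 to 2.73 for Ephx1 (2.16).

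Gsta3 had the lowest p and was at 72.8, 23.3, 93.3 and 67.7 CPM in libraries labelled AhR-/- and at 6.14, 8.88, 4.41 and 1.60 in WT (log2 fold change 3.65 ± 0.69 SE, adjusted p = 0.0261). Gstm2 was at 35.6, 14.9, 39.6 and 37.99 CPM in AhR-/- and 6.95, 6.85, 4.26 and 2.63 CPM in WT (log2 fold change 2.65 ± 0.52 SE, adjusted p = 0.0261). The groups of both genes stood apart, and AhR-/- replicate 2 was the lowest of its group in each. Gstm1 (ENSMUSG00000058135, chromosome 3, 108012255 to 108017973), which shares 18.9% of its 50-base stretches, was at 47.1, 35.04, 20.02 and 24.2 CPM in AhR-/- and 7.85, 10.4, 5.63 and 5.26 CPM in WT (log2 fold change 2.10 ± 0.47 SE, adjusted p = 0.0261). Gsto1 was at 240, 260, 187 and 150 CPM in AhR-/- and 110, 102, 83.1 and 66.8 CPM in WT (log2 fold change 1.20 ± 0.27 SE, adjusted p = 0.0261). Gstt1, a theta enzyme that acts on small halogenated compounds, was at 91.8, 65.3, 65.5 and 61.9 CPM in AhR-/- and 47.98, 25.4, 22.1 and 10.6 CPM in WT (log2 fold change 1.46 ± 0.45 SE, adjusted p = 0.0395). These 3 also had separate groups.

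Ephx1 was at 61.7, 22.9, 74.2 and 66.1 CPM in libraries labelled AhR-/- and 16.1, 18.01, 10.8 and 5.71 in WT (log2 fold change 2.16 ± 0.52 SE, adjusted p = 0.0261). Cyp3a13 was at 11.97, 2.32, 12.7 and 16.3 CPM in AhR-/- and 2.73, 3.30, 0.913 and 1.28 CPM in WT (log2 fold change 2.40 ± 0.63 SE, adjusted p = 0.0278), with replicate 2 inside the WT range. Cyp2f2 was at 255, 208, 148 and 126 CPM in AhR-/- and 62.3, 88.8, 25.4 and 34.4 CPM in WT (log2 fold change 1.73 ± 0.57 SE, adjusted p = 0.0476). The Cyp2f2 groups did not overlap, and neither did those of Cyp2j6, which rose by 1.64 (adjusted p = 0.0379). Cyp4f13 rose by 1.33 (adjusted p = 0.0261) and Mgst3 by 1.01 (adjusted p = 0.0288), each with 1 or more libraries inside the WT range. For both Mgst3 and Gstt1 the adjusted p exceeded 0.05 without the filter on low counts.

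The leading P450s did not pass in this comparison. Cyp2b10 had a log2 fold change of 2.46 (SE 0.92, adjusted p = 0.0690) and Cyp4b1 of 2.36 (SE 0.92, adjusted p = 0.0791), and AhR-/- replicate 2 lay inside the WT range for both. Ugt1a7c was lower, at 4.37, 5.07, 4.55 and 3.89 CPM in libraries labelled AhR-/- and 16.2, 8.37, 25.6 and 19.5 in WT (log2 fold change -1.96 ± 0.46 SE, adjusted p = 0.0261). Cyp4f37 was lower as well, at 1.07, 0.945, 0.455 and 0.530 CPM in AhR-/- and 3.05, 1.52, 10.8 and 4.36 CPM in WT (log2 fold change -2.55 ± 0.67 SE, adjusted p = 0.0282). In both genes all 4 AhR-/- libraries were below all 4 of WT, and Cyp4f37 was under the floor in at least 1 library of each group.

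Markers differed between these groups too. The hematopoietic sum was 121 to 879 CPM in AhR-/- HDM against 1318 to 4203 in WT HDM, without overlap. The ciliated sum was 580 to 2563 CPM against 174 to 632, the club sum 1997 to 8736 against 195 to 2115, the alveolar type 1 sum 3632 to 19940 against 693 to 4768, and the alveolar type 2 sum 7592 to 72040 against 4538 to 24970. Of the alveolar type 2 markers, Abca3 and Napsa had lower means in AhR-/- (44.9 and 225.5 CPM) than in WT HDM libraries (66.1 and 381.6 CPM). The part of these differences in the enzyme levels was not tested beyond the covariates above. Of the 11 promoters of members that rose, 2 held GCGTG (Gstm1 and Mgst3) and 2 TGACNNNGC (Cyp2j6 and Gsta3), and of the 2 that fell neither held either.

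**Figure D4:**
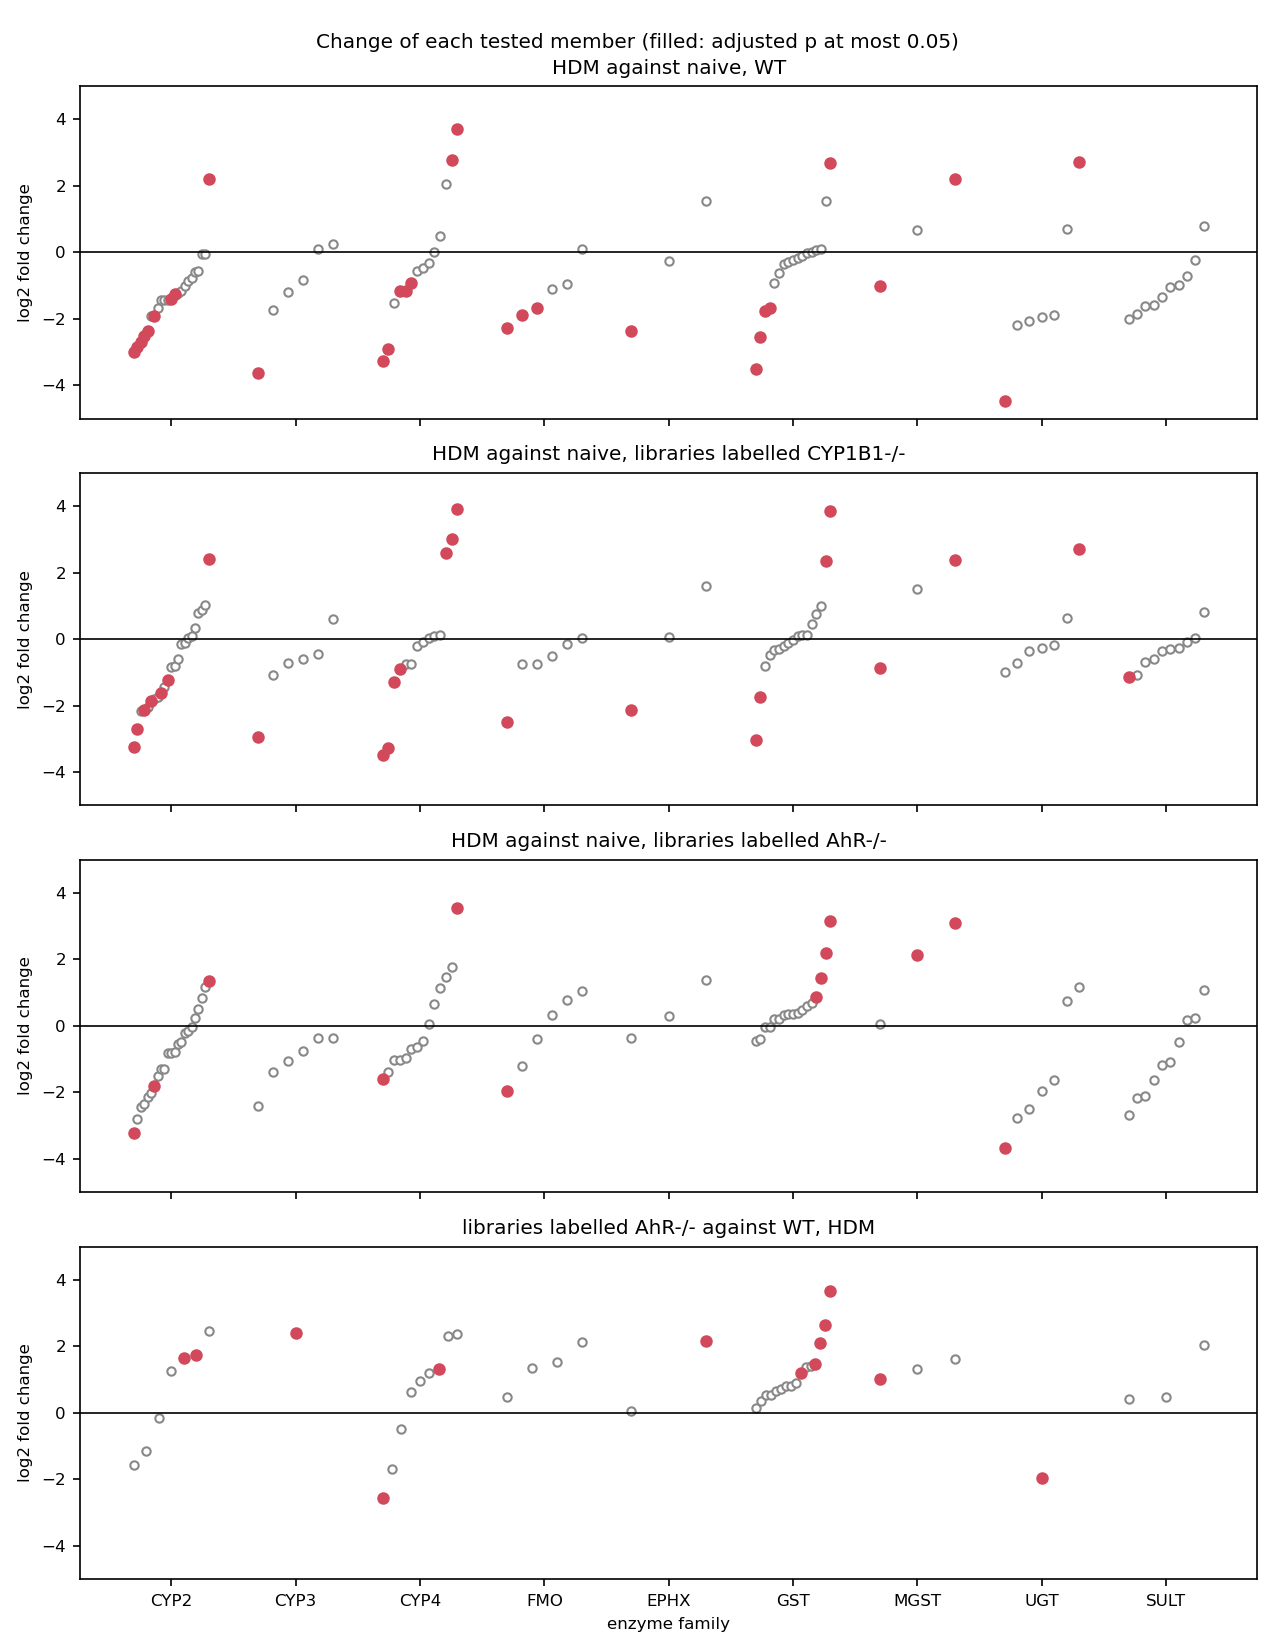
Log2 fold change of each member tested, by family, in the 3 comparisons of HDM with naive and in AhR-/- against WT after HDM, with filled points for an adjusted p of at most 0.05. In WT 24 filled points lie below 0 and 6 above, and in AhR-/- against WT 11 lie above and 2 below.

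In naive ECs no member passed in either genotype comparison. Between AhR-/- and WT, 81 members were tested and none passed (0% of 15547 genes), and a single member, against 1.69% of all genes (263), was under 0.05 before adjustment. That was Cyp2d22, the mouse relative of the drug-metabolizing CYP2D6, at 5.45, 9.48 and 9.72 CPM in AhR-/- and 4.83, 4.75, 4.13 and 3.82 in WT (log2 fold change 0.87 ± 0.24 SE, adjusted p = 0.9999). Cyp4f17 followed with a log2 fold change of 0.44 (SE 0.21, adjusted p = 0.9999). Both had separate groups, and so did Gsta3 and Cyp2b10, which makes 4 members in the higher direction, where 2.1% of all genes were separate and higher. No member passed by the likelihood ratio test, DESeq2 or limma voom.

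Between CYP1B1-/- and WT, none of 81 members passed in naive ECs (2 of 15547 genes, 0.0129%), and none of 46 after HDM (0% of 14161). In naive ECs, 3 members were under 0.05 before adjustment, as were 901 of all genes (5.8%). Sult1c2, under the floor and with separate groups, was at 0.567, 0.507 and 0.530 CPM in CYP1B1-/- and 1.19, 1.05, 1.22 and 0.736 in WT (log2 fold change -1.04 ± 0.40 SE, adjusted p = 0.822), and Fmo5 at 61.8, 67.99 and 69.1 CPM in CYP1B1-/- and 43.4, 40.8, 45.2 and 63.00 CPM in WT (log2 fold change 0.40 ± 0.16 SE, adjusted p = 0.822). Ugt2b1 was the last of them. After HDM, 3 members were under 0.05 before adjustment, as were 233 of all genes (1.65%), namely Gstm1, Cyp2f2 and Cyp2j6. Gstm1 was at 10.5, 21.04, 5.49 and 29.7 CPM in CYP1B1-/- and 7.85, 10.4, 5.63 and 5.26 in WT (log2 fold change 1.20 ± 0.47 SE, adjusted p = 0.9992), and Cyp2f2 at 106, 238, 35.9 and 149 CPM in CYP1B1-/- and 62.3, 88.8, 25.4 and 34.4 CPM in WT (log2 fold change 1.35 ± 0.57 SE, adjusted p = 0.9992). In each of these the HDM groups overlapped. The likelihood ratio test, DESeq2 and limma voom called no member in either comparison.

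A list of 60 other genes of drug metabolism was read beside the members. It holds CYP1 enzymes and redox partners, suppliers of glutathione, glucuronic acid and sulfate, other enzymes, transporters and nuclear sensors. In WT, 14 of the 57 tested were lower and 7 higher in HDM, where 19.4% and 19% of all genes were lower and higher, with a median of -0.44. Por, which passes electrons to all microsomal P450s, fell by 1.34 (adjusted p = 0.000570) and by 1.65 and 1.58 in AhR-/- and CYP1B1-/-. The glutathione genes divided, as Gclc, the catalytic subunit of the first enzyme, rose by 3.31 (adjusted p = 0.000890) while its partner Gclm fell by 1.39 (adjusted p = 0.00969) and Gss by 1.81 (adjusted p = 0.000145). Gclc rose in AhR-/- (4.33) and CYP1B1-/- (4.06) as well. In AhR-/- HDM it was at 357.7 and 244.5 CPM in replicates 1 and 2 and at 16.8 and 47.4 in replicates 3 and 4. The alveolar type 2 sums and the Ddx3y reads divided the same libraries, and the part of either was not tested. Nqo1, a quinone reductase, and Aldh1a1 fell by 2.03 and 2.15 in WT.

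Among HDM libraries, 8 of the 50 list genes tested were higher in AhR-/- than in WT and 6 lower, where 9.22% and 12.9% of all genes were higher and lower, with a median of 0.27. Gclm rose by 1.52 and Nqo1 by 2.00, Aldh1a1 by 2.40, Aox1 by 1.45, Cbr1 by 1.13 and Gss by 1.18, with adjusted p from 0.0261 to 0.0339. The cystine carrier Slc7a11 fell by 1.57 (adjusted p = 0.0384), as did the exporters Abcb1b (2.28), Abcc4 (1.28) and Abcc1 (1.10) and the receptor Rxra (1.46). In naive ECs no list gene passed in either knockout, nor did any between CYP1B1-/- and WT after HDM. Cyp1a1 and Cyp1a2, the AhR-induced P450s outside the member families, were at 0 to 1.08 and 0 to 0.884 CPM over all libraries, which is 3 counts or fewer in some of them.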

How the data were processed

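Sorted lung ECs of 6 groups (22 libraries) were profiled by mRNA-seq. The authors demultiplexed with bcl2fastq 2.19.1, trimmed with bbduk, aligned with GSNAP to mm10 (GRCm38) and deposited whole-number counts per gene from featureCounts 2.0.0 (Ensembl 99), 1 table per state. Strand and multimapping settings are not given in the sources used here. Total counts per library were 9654825 to 17878442, with 3 counts worth 0.108 to 1.37 CPM, and intervals cover counting error only.

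Protein-coding genes were kept if filterByExpr, given the groups, passed them (minimum count 10, minimum total 15). The minimum count, scaled to library size, must be reached in about as many libraries as the smallest group holds. Genes kept were TMM-normalized and tested with edgeR 4.0.16 (R 4.3.3), quasi-likelihood with robust fit. Benjamini-Hochberg adjustment ran over all genes tested, with a threshold of 0.05. Genotypes were compared within each state table, and states and interactions in 1 fit of 22 libraries. Standard errors are the fold change over the root of the F statistic. Genes named in the text were up to 10 members of lowest p in each direction per comparison (otherwise 2), the 3 highest of each family per kb of exon, those at the edge of the count rule, and called genes of the 60-gene list. Members, lists and tests were chosen with earlier results of these data known, and other names were added after their values were seen. The values of 1 member that this rule names are not reported here. Alternatives were the likelihood ratio test, DESeq2 1.42.0 and limma voom 3.58.1 with sample weights. Others were RLE scaling, other filters, a replicate block, marker covariates and leaving out libraries. The alveolar type 1 covariate and the Y-linked splits were added after seeing the data. Scripts were tested on simulated data. Promoters are from RefSeq (GRCm38.p6).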

Additional observations from a re-analysis of the deposited data

Results flagged for a closer look

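Among 188 sets of 4 libraries of named members, 8 held a library whose gap to its nearest neighbour was large for the range of its group, where chance alone gives about 1 in 20, or 9.4. In AhR-/- HDM, replicate 2 was low for Ephx1 (22.93 CPM against 61.7 to 74.16) and Gstm2 (14.86 against 35.58 to 39.58), and replicate 1 was high for Gstt1 (91.8 against 61.85 to 65.51) and low for Sult1c2 (0.1075 against 0.455 to 0.5302). Sult1c2 was under the level of silent genes, and replicates 1 to 4 held 3, 6, 1 and 3 of its reads. In naive WT, replicate 4 was low for Sult1d1 (2.715 against 7.1 to 8.398) and Ugt2b5 (0.1841 against 1.422 to 1.551), and replicate 3 was high for Mgst2 (0.8127 against 0.2301 to 0.3086). Ugt2b38 was counted in WT HDM in replicate 4 alone (0.1282 CPM, against 0 in the other 3). Replicate 2 of AhR-/- HDM also had the fewest alveolar type 1 marker counts of its group (3632 CPM against 10170 to 19940), and the part of this in its enzyme levels was not tested.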

How the results depend on the processing

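The 13 members called between AhR-/- and WT after HDM became 22 by the likelihood ratio test, 27 by DESeq2 and 30 by limma voom with sample weights. They became 0 with a replicate block, with the hematopoietic or the alveolar type 1 score as a covariate, or without the AhR-/- libraries with Y-linked reads. Leaving out 1 library gave 0 to 20 calls. The AhR-/- interaction (0 calls) gave 2, 7 and 20 by the same tests, and 0 to 5 with 1 library left out. The 30 calls between states in WT became 51 by limma voom with sample weights, 0 with the hematopoietic and 3 with the alveolar type 1 score. The 13 in AhR-/- became 8 with the replicate block, 1 with the hematopoietic score, 1 with the Y-linked HDM libraries only, 12 with the alveolar type 1 score (without Cyp2b23, Cyp4f18 and Cyp4f39), and 4 to 12 with 1 library left out. The 25 in CYP1B1-/- became 0 with either score. The cause of these changes was not tested. The share of all genes called is not given beside these counts, so they are not read as particular to the members. Directions reversed only under the scores. With the hematopoietic score, Cyp4f18 stood at -0.62 in AhR-/- and -1.29 in CYP1B1-/- between states. With the alveolar type 1 score, Cyp4b1 stood at 0.19 in WT, and in CYP1B1-/- Gsta3 at 0.030, Ephx1 at 0.23, Cyp4b1 at 0.80, Cyp2b10 at 0.92 and Gstm2 at 0.56. Same-numbered libraries correlated at -0.564 to 0.748 in their deviations, so the numbers were not taken as pairs, and the replicate block gave 31 calls between states in WT and 21 in CYP1B1-/-. Of the named values, 67 of 69 kept direction and call by DESeq2 and 2 gained the call.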
